A study of Mus musculus with 6 samples.

Results

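The genes described here encode surface proteins by which spermatogonia, the germ cells that divide by mitosis, are sorted (Kit, Epcam, Cdh1, Thy1, Cd9, Cd24a, Mcam and Tspan8), together with Kitl, the ligand of the Kit receptor. They were picked by symbol, and all 9 were found among the 21786 symbols shared by the 6 count files. Each of the 9 passed the filter on low counts that left 15018 genes for testing. Polyadenylated RNA of whole mouse testes was sequenced. The Stra8-deficient group (Stra8 -/-) comprised 3 males of 1 year whose testes were grossly enlarged, and the wild-type group (Stra8 +/+) comprised 3 males of 2 to 4 months, all on the C57BL/6 background. Age therefore follows genotype, and what genotype, age and enlargement each contribute cannot be told apart. In whole testes, fewer cells of a type and less RNA per cell cannot be told apart either.

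Kit is a receptor tyrosine kinase that appears on the germ cell surface as spermatogonia begin to differentiate, and stem and progenitor spermatogonia carry little of it. Its ligand is made by Sertoli cells, the somatic cells that nurse the germ line, as a membrane-bound and a soluble form, and is needed for differentiating spermatogonia to survive and divide. Epcam, Cdh1, Thy1, Cd9, Cd24a, Mcam and Tspan8 are adhesion molecules, tetraspanins or lipid-anchored glycoproteins that mark various spermatogonial fractions, but each is also found on other cell types.

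Gene reads numbered 6733128 to 12425689 per library, and 11379 of the 15018 tested genes (75.8%) were called different between the genotypes (edgeR's quasi-likelihood F test with Benjamini-Hochberg adjustment, threshold 0.05). Stra8, whose product drives germ cells into meiosis, had 211, 249 and 270 reads in the Stra8-deficient and 120, 132 and 93 reads in the wild-type libraries, and the deleted part of the gene is not given, so its reads do not check the labels. The 14 spermatid markers summed to 12.9 to 24.8 CPM (reads set to a common library size, scaled by TMM) in the Stra8-deficient and 26317 to 30462 CPM in the wild-type libraries. The wild-type testes resembled each other closely, with a biological coefficient of variation of 7.36%, whereas this was 38.1% among the Stra8-deficient ones. The third Stra8-deficient library was counted on a list of 23285 symbols and the other 5 on 22055. It also stood apart in somatic markers, which are given beside the results they touch.

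As a group the surface markers were higher in the Stra8-deficient testes. The 9 genes were chosen with earlier results of these data known. The shares of all tested genes given beside them are therefore a description, not a test. Of the 9 genes 8 were called higher, against 39.0% of all tested genes, and 0 were called lower, against 36.7% of all tested genes; Kitl was not called. The median log2 fold change of the 9, Stra8-deficient over wild type, was 2.68, and that of all tested genes was 0.11. All 9 genes separated the genotypes without overlap (80.2% of tested genes did), 8 of them higher (40.7% of tested genes) and 1 lower (39.4% of tested genes). Their summed level was 794, 808 and 693 CPM in the Stra8-deficient and 156, 145 and 151 CPM in the wild-type libraries.

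**Figure D1:**
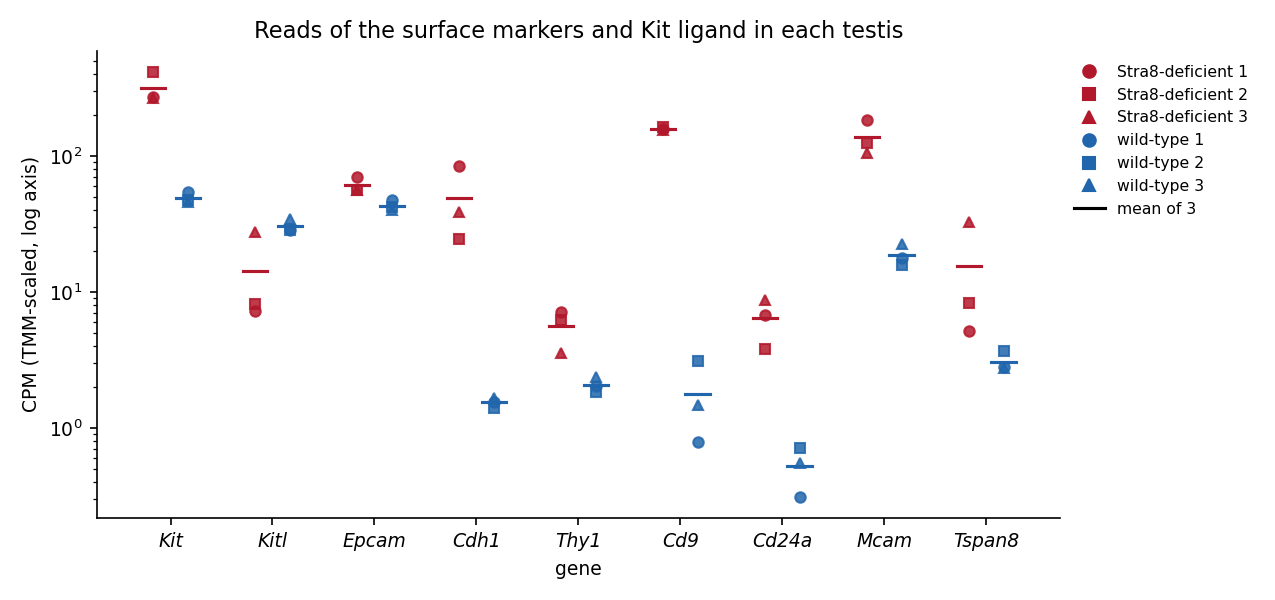
Level of each gene in each of the 6 libraries, in CPM on a log axis, with Stra8-deficient points left of wild-type points and a bar at the mean of 3 libraries. Cd9 lay at 154 to 163 CPM in the Stra8-deficient and at 0.781 to 3.11 CPM in the wild-type libraries, while Kitl lay close to the wild-type level in 1 of 3 Stra8-deficient libraries.

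Kit, on chromosome 5, was the most read of the 9 genes in both genotypes. It had 2707, 4352 and 3960 reads in the Stra8-deficient and 348, 338 and 252 reads in the wild-type libraries, or 272, 415 and 265 CPM against 54.3, 47.7 and 46.2 CPM. The second Stra8-deficient library was the highest, and the lowest Stra8-deficient value was still well above the highest wild-type one. Kit rose by 2.68 ± 0.23 on the log2 scale (approximate standard error; edgeR's quasi-likelihood test, adjusted p = 5.76e-06). It took 41.4% of the summed CPM of the 9 genes in Stra8-deficient testes and 32.8% in wild-type ones. Mouse spermatids are known to make a shortened Kit transcript from a start inside the gene, and counts per gene do not separate it from the full-length receptor mRNA.

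Kitl, on chromosome 10, was the only one of the 9 genes below its wild-type level, and the difference was not called. It had 72, 85 and 409 reads in the Stra8-deficient and 183, 202 and 186 reads in the wild-type libraries. Scaled for depth, Kitl was at 7.23, 8.10 and 27.4 CPM against 28.6, 28.5 and 34.1 CPM. The first and second Stra8-deficient libraries were low, and the third was just under the wild-type range. On the log2 scale Kitl differed by -1.08 ± 0.47 (edgeR, unadjusted p = 0.049, adjusted p = 0.0635), and DESeq2 called it lower. Without the third Stra8-deficient library it was -1.99 (edgeR, adjusted p = 9.40e-05), and in the authors' deposited table it was -1.09 with a corrected p of 0.0106.

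Somatic markers also varied among the Stra8-deficient testes. The list of 17 Sertoli cell markers summed to 505, 287 and 1289 CPM in the Stra8-deficient libraries and to 2834, 2606 and 2571 CPM in the wild-type ones. Of these 17 genes 14 were called lower and 0 higher, with a median log2 fold change of -3.50. Of all tested genes 36.7% were lower and 39.0% higher. The Leydig cell list summed to 362, 19.5 and 2913 CPM against 1351, 918 and 1419 CPM in wild type, and the list of smooth muscle and pericytes to 168, 185 and 405 CPM against 400, 410 and 444 CPM. In each of these 3 lists the third library had the highest Stra8-deficient sum, as it did for Kitl; the part of these cells in the Kitl level was not tested.

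Relative to the geometric mean of the Sertoli cell markers of the same library, Kitl lay higher in the Stra8-deficient testes. The ratio of Kitl reads to the geometric mean of the Sertoli marker reads was 1.30, 5.88 and 3.56 in the Stra8-deficient and 0.583, 0.597 and 0.734 in the wild-type libraries. Every Stra8-deficient value was above every wild-type value. The mean log2 ratio was 1.59 ± 1.11 against -0.66 ± 0.18 (SD, n = 3 each), a difference of 2.24 (exact two-sided permutation p = 0.1, the smallest that 3 against 3 libraries allow). With the marker reads summed instead, the difference was 0.85. Marker genes of the list did not fall alike. Wt1, a Sertoli cell transcription factor, was at 56.8 ± 8.97 CPM against 70.4 ± 0.585 CPM and was not called (log2 fold change -0.31, edgeR, adjusted p = 0.138). This gene was chosen after its value was seen. Kitl itself, at -1.08 and not called, lay further below wild type than Wt1, so relative to Wt1 alone its mean level was not higher. No ratio of Kitl to Wt1 was computed per library, so this comparison rests on the mean fold changes of 1 marker. The difference was above 0 for every marker set computed, from 0.85 (summed) to 2.80 (without Clu, Trf and Ctsl, chosen after seeing the data). The direction of the ratio thus held over these sets but not against every single marker.

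The balance of receptor to ligand reads was shifted in every Stra8-deficient testis. Per library there were 37.6, 51.2 and 9.68 Kit reads for each Kitl read in Stra8-deficient testes, against 1.90, 1.67 and 1.35 in wild-type ones. The third library was the nearest to wild type and still stood apart from it. The mean log2 ratios were 4.73 ± 1.28 and 0.70 ± 0.25 (SD, n = 3 each), a difference of 4.03 (exact two-sided permutation p = 0.1, the smallest possible). The ratio is of reads, not of molecules, since the genes differ in length.

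**Figure D2:**
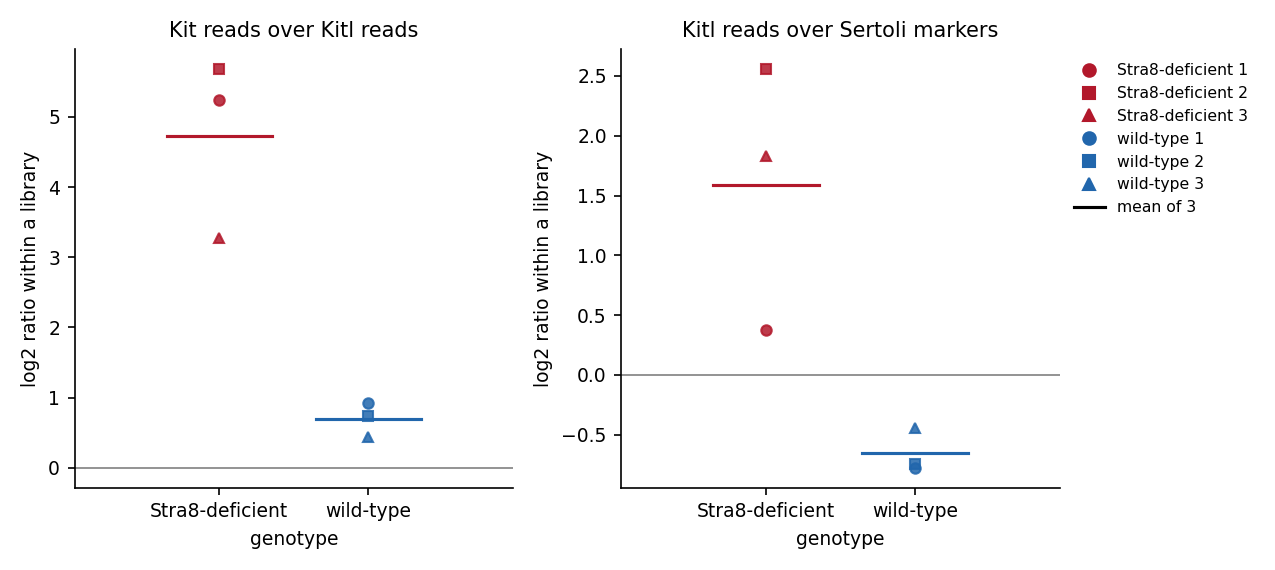
Log2 ratio within each library of Kit reads to Kitl reads (left) and of Kitl reads to the geometric mean of Sertoli marker reads (right), with Stra8-deficient points left of wild-type points and a bar at the mean of 3 libraries. In both panels every Stra8-deficient library lies above every wild-type library.

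The sequence before the transcription start is shown for the receptor and ligand, which lay on opposite sides of wild type, and for Cd9, which had the largest fold change of the 9 genes. RefSeq promoters of build GRCm38.p6 were matched for 6 of the 9 genes. Each run is the 250 bases before the start on the gene's strand, chr5:75574737-75574986 (plus strand) for Kit, chr10:100015571-100015820 (plus strand) for Kitl and chr6:125494761-125495010 (minus strand) for Cd9. Capitals mark 3 motifs searched on both strands: CANNTG (the E-box, bound by bHLH factors such as Sohlh1 and Sohlh2), GGGCGG (the GC box) and TATAAA (the TATA box), with overlapping matches run together.
Kit: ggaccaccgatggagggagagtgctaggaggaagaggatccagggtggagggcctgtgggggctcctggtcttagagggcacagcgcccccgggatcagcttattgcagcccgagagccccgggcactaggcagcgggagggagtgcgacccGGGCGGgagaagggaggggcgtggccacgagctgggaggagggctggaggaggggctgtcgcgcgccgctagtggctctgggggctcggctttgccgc
Kitl: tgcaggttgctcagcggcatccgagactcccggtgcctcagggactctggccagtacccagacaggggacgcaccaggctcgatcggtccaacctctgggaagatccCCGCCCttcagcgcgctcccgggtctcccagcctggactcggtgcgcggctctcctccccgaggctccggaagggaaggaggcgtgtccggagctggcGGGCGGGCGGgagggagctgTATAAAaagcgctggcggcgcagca
Cd9: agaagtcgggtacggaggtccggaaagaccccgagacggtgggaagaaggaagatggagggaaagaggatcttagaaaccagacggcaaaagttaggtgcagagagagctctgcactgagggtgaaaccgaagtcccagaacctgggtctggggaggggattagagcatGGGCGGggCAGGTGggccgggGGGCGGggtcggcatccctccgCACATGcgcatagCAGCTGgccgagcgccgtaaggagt

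The Kit window held 0 E-boxes and 1 GC box, the Kitl window 0 E-boxes, 3 GC boxes and 1 TATA box, and the Cd9 window 3 E-boxes and 2 GC boxes. Among 27025 promoters of the same length, 66% held an E-box, 32.9% a GC box and 13% a TATA box. These letters are a description of the windows and show no binding.

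The adhesion molecules Epcam and Cdh1 differed in size of change. Epcam, on chromosome 17, is a homophilic adhesion molecule of epithelia and spermatogonia. It was already well read in normal testes, with 69.8, 56.3 and 56.5 CPM in the Stra8-deficient and 47.5, 41.9 and 39.8 CPM in the wild-type libraries. The lowest Stra8-deficient value was above the highest wild-type one, and Epcam rose by 0.50 ± 0.18 (edgeR's quasi-likelihood test, adjusted p = 0.0301). That call was lost when the first Stra8-deficient library (log2 fold change 0.36) or any 1 wild-type library (0.43 to 0.56) was left out, and the authors' deposited table gives 0.50 with a corrected p of 0.144.

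Cdh1, on chromosome 8, encodes E-cadherin, the calcium-dependent adhesion molecule of epithelia and undifferentiated spermatogonia. It had 835, 257 and 582 reads in the Stra8-deficient and 10, 10 and 9 reads in the wild-type libraries, or 83.8, 24.5 and 39.0 CPM against 1.56, 1.41 and 1.65 CPM. The first Stra8-deficient library was 3.42-fold above the second, and all 3 were far above wild type. Cdh1 rose by 4.99 ± 0.51 (edgeR, adjusted p = 2.17e-05). In that first library the list of 20 markers of undifferentiated spermatogonia also had its highest sum (2813 CPM, against 1804 and 1708 CPM in the other Stra8-deficient libraries and 183 to 195 CPM in wild type); its part in the spread of Cdh1 was not tested.

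The tetraspanins Cd9 and Tspan8, which cross the membrane 4 times and gather other surface proteins, both rose. Cd9, on chromosome 6, was the most uniform of the 9 genes among Stra8-deficient testes. It had 1583, 1709 and 2301 reads in the Stra8-deficient and 5, 22 and 8 reads in the wild-type libraries, or 159, 163 and 154 CPM against 0.781, 3.11 and 1.47 CPM. The 3 Stra8-deficient values differed by at most 1.06-fold. Cd9 rose by 6.43 ± 0.37 on the log2 scale (edgeR, adjusted p = 5.24e-07), and 0.566% of tested genes had a larger fold change. The 35 wild-type reads carry a 95% exact Poisson interval of 24.4 to 48.7, for counting error only. Annotated exons of Cd9 overlap 218 bases of an opposite-strand transcript, Gm26728, and without stated strand handling reads of the overlap cannot be assigned.

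Tspan8, on chromosome 10, has been used to enrich mouse spermatogonia with stem cell activity. It had 51, 87 and 490 reads in the Stra8-deficient and 18, 26 and 15 reads in the wild-type libraries, or 5.12, 8.29 and 32.8 CPM against 2.81, 3.67 and 2.75 CPM. All 3 Stra8-deficient values were above wild type, and the third was 6.41-fold above the first. Whether the longer list of symbols used for the third library touches Tspan8 cannot be seen from the counts. Tspan8 rose by 2.32 ± 0.67 (edgeR, adjusted p = 0.0112), or by 1.11 without the third Stra8-deficient library (edgeR, adjusted p = 0.0193). With limma-voom it was at 1.96 and not called (adjusted p = 0.0588). In the third library 7.12% of tested genes lay over 2-fold above both other Stra8-deficient libraries, against 4.10% in the first and 2.65% in the second. Of the 9 genes these were Kitl and Tspan8 in the third library and Cdh1 in the first. Over 2-fold below both others lay 5.52% of tested genes in the second library, 3.35% in the first and 2.31% in the third. Macrophage markers summed to 540, 407 and 1714 CPM in the Stra8-deficient and 117 to 127 CPM in the wild-type libraries, and their part in the level of Tspan8 was not tested.

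The lipid-anchored glycoproteins Thy1 and Cd24a rose at low levels. Thy1, on chromosome 9, is used to enrich stem spermatogonia and is also a T cell antigen. It had 71, 65 and 53 reads in the Stra8-deficient and 13 reads in each wild-type library, or 7.13, 6.19 and 3.55 CPM against 2.03, 1.84 and 2.38 CPM. The third Stra8-deficient library was the lowest of its group and lay above every wild-type one. Thy1 rose by 1.43 ± 0.40 (edgeR, adjusted p = 0.00911). The 12 T cell markers summed to 54.3 to 68.0 CPM in the Stra8-deficient and 36.7 to 40.7 CPM in the wild-type libraries, with 4 of 7 tested markers called higher and 1 lower. The median log2 fold change of the tested T cell markers was 1.59. All tested genes had a median of 0.11, with 39.0% higher and 36.7% lower. The 4 T cell markers called higher were Cd2, Cd8a, Cd4 and Lck, and the 1 called lower was Cd3d. Cd3e, a subunit of the T cell receptor complex, did not pass the filter on low counts. It had 5, 2 and 8 reads against 6, 4 and 4 reads in wild type. The part of T cells in the level of Thy1 was not tested.

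Cd24a, on chromosome 10, is a small mucin-like antigen of many immature cells. It had 67, 40 and 131 reads in the Stra8-deficient and 2, 5 and 3 reads in the wild-type libraries, or 6.73, 3.81 and 8.77 CPM against 0.312, 0.706 and 0.550 CPM. All Stra8-deficient values were above wild type, and Cd24a rose by 3.58 ± 0.52 (edgeR, adjusted p = 1.86e-04). Its 10 wild-type reads carry a 95% exact Poisson interval of 4.80 to 18.4. Intronless copies of Cd24a lie elsewhere in the mouse genome, so its counts are uncertain.

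Mcam, on chromosome 9, encodes a cell adhesion molecule of the immunoglobulin family found on spermatogonia, endothelium and vascular muscle. It had 1833, 1299 and 1581 reads in the Stra8-deficient and 113, 112 and 122 reads in the wild-type libraries, or 184, 124 and 106 CPM against 17.6, 15.8 and 22.4 CPM. The lowest Stra8-deficient value was far above the highest wild-type one, and Mcam rose by 2.89 ± 0.26 (edgeR, adjusted p = 9.00e-06). Of 11 tested endothelial markers 6 were called higher and 1 lower, with a median of 0.73. Of all tested genes 39.0% were higher and 36.7% lower, with a median of 0.11. The number of endothelial markers called higher was 3 without the second Stra8-deficient library, 4 without the first and 4 with RLE size factors. The endothelial list of 12 genes summed to 285, 213 and 139 CPM in the Stra8-deficient libraries, the same order as Mcam, and to 99.4 to 118 CPM in the wild-type ones, and its part in the level of Mcam was not tested.

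Set per kilobase of annotated exon, the order of the 9 levels differed between the genotypes. In Stra8-deficient testes Cd9 was the highest at 77.6 ± 2.13 CPM per kilobase, apart from all others. It was followed by Mcam (41.2), Kit (35.6) and Epcam (27.7), where Mcam and Kit overlapped, and so did Kit and Epcam. Cdh1 (10.7), Tspan8 (9.05), Cd24a (2.49), Kitl (2.41) and Thy1 (1.88) came next, each overlapping its neighbour. In wild-type testes Epcam was the highest at 19.6 ± 1.80 CPM per kilobase (SD, n = 3). Mcam (5.56), Kit (5.55) and Kitl (5.14) overlapped one another in turn, and Tspan8 stood below them at 1.81. Cd9 (0.873) and Thy1 (0.696) overlapped, and Cdh1 (0.337) and Cd24a (0.203) were the lowest. Cd9 thus ranked 1 of 9 in Stra8-deficient testes and 6 of 9 in wild-type ones.

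Among proteins that carry or damp the Kit signal inside the cell, 27 of 46 tested genes were higher, 7 lower and 12 not called, with a median of 0.81. Over all tested genes 39.0% were higher and 36.7% lower. Foxo1, a transcription factor of spermatogonia that signalling through PI3 kinase and Akt restrains, rose by 3.35 ± 0.20 to 230 ± 21.3 CPM, against 22.5 ± 3.52 CPM in wild type. Map2k1, the kinase that activates ERK, rose by 3.24 ± 0.19 to 106 ± 13.5 CPM, against 11.2 ± 0.843 CPM. Sh2b3, an adaptor that restrains Kit signalling in blood cells, fell by 3.17 on the log2 scale to 24.4 ± 7.97 CPM, against 219 ± 4.69 CPM in wild type; under Sertoli-list scaling it was at -0.61 and not called. Scaled by library size alone 35 of these genes were higher and 3 lower, and with Sertoli-list scaling 42 were higher and 0 lower.

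Of 9 tested transcription factors known to act on Kit 6 were higher and 2 lower, with a median of 2.31. Over all tested genes 39.0% were higher and 36.7% lower. With RLE size factors, and without the first Stra8-deficient library, 5 of these factors were higher and 3 lower. Sohlh1 and Sohlh2, which activate Kit in spermatogonia, rose by 4.57 ± 0.31 and 3.67 ± 0.18. Zbtb16, which represses Kit in undifferentiated spermatogonia, rose by 4.66 ± 0.32. Sohlh1 had 2152, 2003 and 2688 reads in the Stra8-deficient and 58, 77 and 24 reads in the wild-type libraries, and Zbtb16 had 4563, 2717 and 3637 reads against 98, 88 and 56 reads. Activators and a repressor of Kit were thus both higher in the same libraries. Etv5, a GDNF-responsive factor, was lower (-2.70 ± 0.65), a call lost under Sertoli-list scaling. Of the proteases known to release Kit or its ligand from the cell surface, Adam17 rose by 1.98 ± 0.31 and Mmp9 by 2.61 ± 0.54, while Adam33 and Cma1 did not pass the filter on low counts.

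Of 8 other surface proteins used to sort spermatogonia 7 were higher and 1 lower, with a median of 2.38. Over all tested genes 39.0% were higher and 36.7% lower. Itgav and B2m are used by their low level or absence, so the count mixes positive and negative sorting markers. Ret and Gfra1, the receptor and co-receptor for GDNF, rose by 5.08 ± 0.33 and 4.99 ± 0.21. Both are also in the list of undifferentiated spermatogonia. The integrin subunits Itga6 and Itgb1, which enrich stem spermatogonia, rose by 1.75 ± 0.22 and 2.28 ± 0.19. Itgav, an integrin subunit used to sort such cells by its low level, fell by 1.33 on the log2 scale to 7.17 ± 1.42 CPM, against 18.1 ± 1.80 CPM in wild type, a value that turned to 1.00 and was not called under Sertoli-list scaling. B2m, the light chain of MHC class I, which these cells are also sorted by lacking, rose by 2.49 ± 0.48, or by 1.68 without the third Stra8-deficient library. It had 830, 1330 and 5106 reads in the Stra8-deficient and 200, 220 and 195 reads in the wild-type libraries, highest in the third library, where the macrophage list was also highest; its part in the level of B2m was not tested.

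Of 19 tested cadherin and catenin genes 6 were higher, 5 lower and 8 not called, both below the shares over all tested genes. Their median was -0.12 and was above 0 with library size alone (0.50), upper-quartile factors (0.15) and Sertoli scaling (2.31). Cdh15, M-cadherin, rose by 5.05 ± 0.37, and Ctnnb1, the beta-catenin gene whose product binds the tail of E-cadherin, rose by 2.12 ± 0.23. Ctnna3, an alpha-catenin gene, had 8, 3 and 5 reads against 749, 804 and 555 reads in wild type and fell by 7.88. Of 5 tested partners of Epcam 4 were higher (39.0% of all tested genes were) and 0 lower (36.7% were), led by Cd44, a hyaluronan receptor (4.39 ± 0.64). Higher calls numbered 3 without the first or the third Stra8-deficient library. The claudin Cldn7, which binds Epcam in epithelia, had 1 to 10 reads in every library and was not tested.

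Of 25 other tested tetraspanin genes 9 were higher, 10 lower and 6 not called, close to the shares over all tested genes (39.0% higher, 36.7% lower). Their median was 0.13, and -0.33 without the third Stra8-deficient library. With library size alone 12 were higher and 6 lower. Cd53, a leukocyte tetraspanin, rose by 4.28 ± 0.66, with 97, 113 and 528 reads in the Stra8-deficient and 10, 4 and 4 reads in the wild-type libraries. Prph2, a photoreceptor tetraspanin, fell by 4.95, and Tspan6 by 3.44 (-1.21 and not called under Sertoli-list scaling). Cd81, the close relative of Cd9, was at 108 ± 40.4 CPM against 104 ± 7.56 CPM and was not called (0.05 on the log2 scale; edgeR, adjusted p = 0.884); it was called higher with library size alone (0.66) and under Sertoli-list scaling (2.26), and was at -0.082 with RLE. Among 6 tested partners of Cd9, Ptgfrn, an immunoglobulin-family protein that binds it, rose by 2.71 ± 0.33, and Izumo1, the sperm protein of egg fusion, fell by 2.94 (-0.38 and not called under Sertoli-list scaling). Of 11 other tested lipid-anchored surface proteins 4 were higher and 4 lower, also near the shares over all tested genes, among them Cd52, a leukocyte antigen (3.16 ± 0.79), Ly6a (2.36 ± 0.87) and Prnd, the doppel gene of the testis (-7.26 ± 0.32). Without the third Stra8-deficient library 2 were higher and 4 lower, and with library size alone 6 were higher and 3 lower. Cd52 was at 1.71 without the third Stra8-deficient library and was still called. Ly6a was not called without the third Stra8-deficient library (1.13), the first wild-type library (1.86) or the third wild-type library (2.25).

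**Figure D3:**
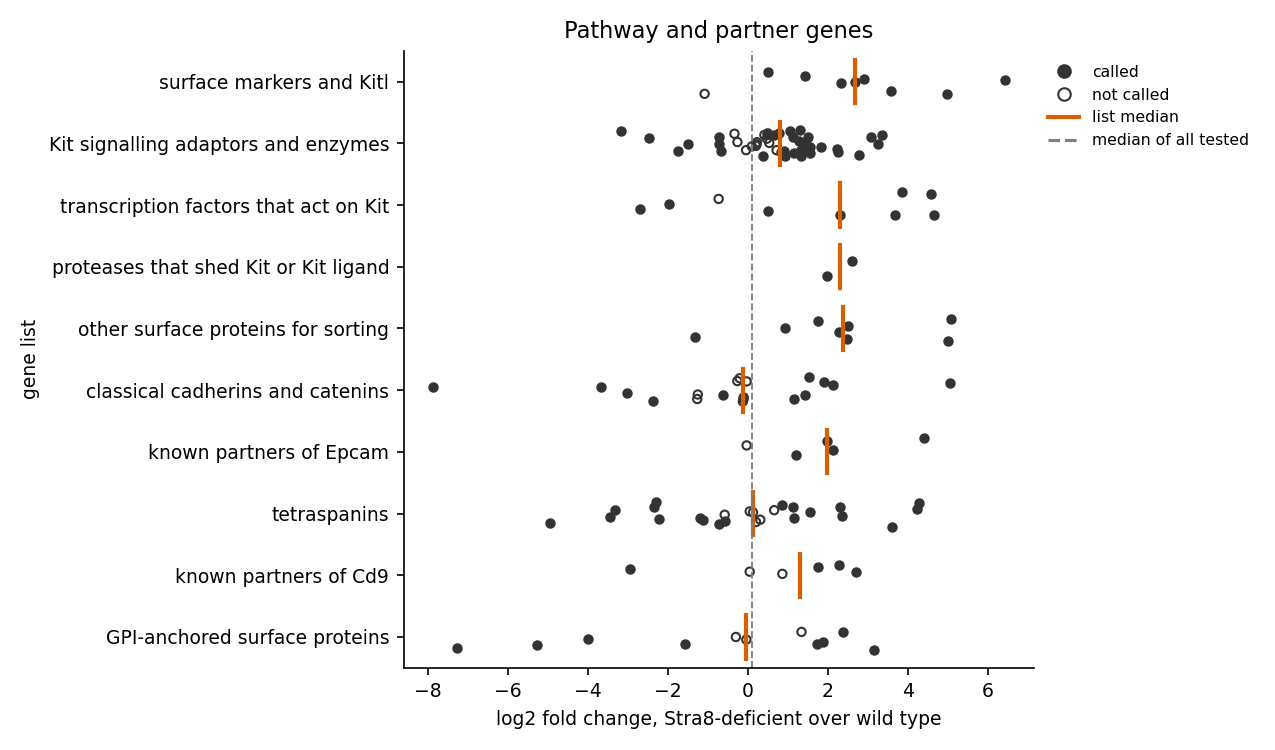
Log2 fold change, Stra8-deficient over wild type, of each tested gene in the surface marker set and in 9 lists of pathway, family and partner genes; filled points passed the test, open points did not, orange bars mark list medians and the dashed line the median of all tested genes (0.11). The tetraspanin and cadherin lists spread to both sides, while the median of the surface markers and Kitl lies at 2.68.

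Markers of cells other than spermatogonia that carry these proteins were read as follows. For all lists of this paragraph the shares to compare with are those over all tested genes, 39.0% higher and 36.7% lower. Of 11 mast cell markers 2, Gata2 and Hdc, were tested and 0 called by edgeR with TMM (1 at an unadjusted p under 0.05). Of these 2 genes 1 was lower with RLE and without the first Stra8-deficient library, 1 was higher with library size alone, and both were higher under Sertoli-list scaling. The mast cell genes Mcpt4, Mcpt1, Mcpt2, Ms4a2 and Fcer1a had 0 reads in all 6 libraries. Leydig cells also carry Kit, and Kit was highest (415 CPM) in the second Stra8-deficient library, where the Leydig list was lowest (19.5 CPM); the part of Leydig cells in the level of Kit was not tested. For the epithelium of the rete testis, ducts and epididymis, which carries Epcam, Cdh1, Cd9 and Cd24a, 5 of 15 markers were tested. Of these 3 were higher (Krt19, Krt7 and Cldn4) and 2 lower (Cldn3 and Rnase10). The list summed to 24.0 to 43.8 CPM in the Stra8-deficient and 83.8 to 101 CPM in the wild-type libraries. Most of the wild-type sum was Cldn3 alone, at 73.4, 88.5 and 79.8 CPM, against 2.11, 1.52 and 4.96 CPM in the Stra8-deficient libraries. Lcn5, Lcn9 and Crisp1, secreted by the epididymis, had 0 reads in all 6 libraries. Krt19, a keratin of duct epithelia, had 230, 179 and 137 reads against 2, 3 and 3 reads in wild type, and Krt7 had 137, 37 and 53 reads against 0 in every wild-type library, whereas Krt8 had 1, 0 and 4 reads against 6, 11 and 9 reads. The part of duct epithelium in the levels of Epcam, Cdh1, Cd9 and Cd24a was not tested. Of 19 tested genes of undifferentiated spermatogonia 16 were higher and 3 lower (median 4.47), and of 9 of differentiating spermatogonia 7 were higher and 1 lower (median 3.67). The lower ones were Id4, a marker of stem spermatogonia (-2.76 ± 0.21), Lhx1 (-3.42 ± 0.47) and Etv5 in the undifferentiated list, of which 0 genes were called lower under Sertoli-list scaling. In the differentiating list it was Dmrtb1 (-8.64 ± 0.36), a factor of the passage from mitosis to meiosis. Id4, Lhx1 and Dmrtb1 were chosen after their values were seen. Of the 9 genes, Cd9 and Cdh1 had fold changes above both medians.

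**Figure D4:**
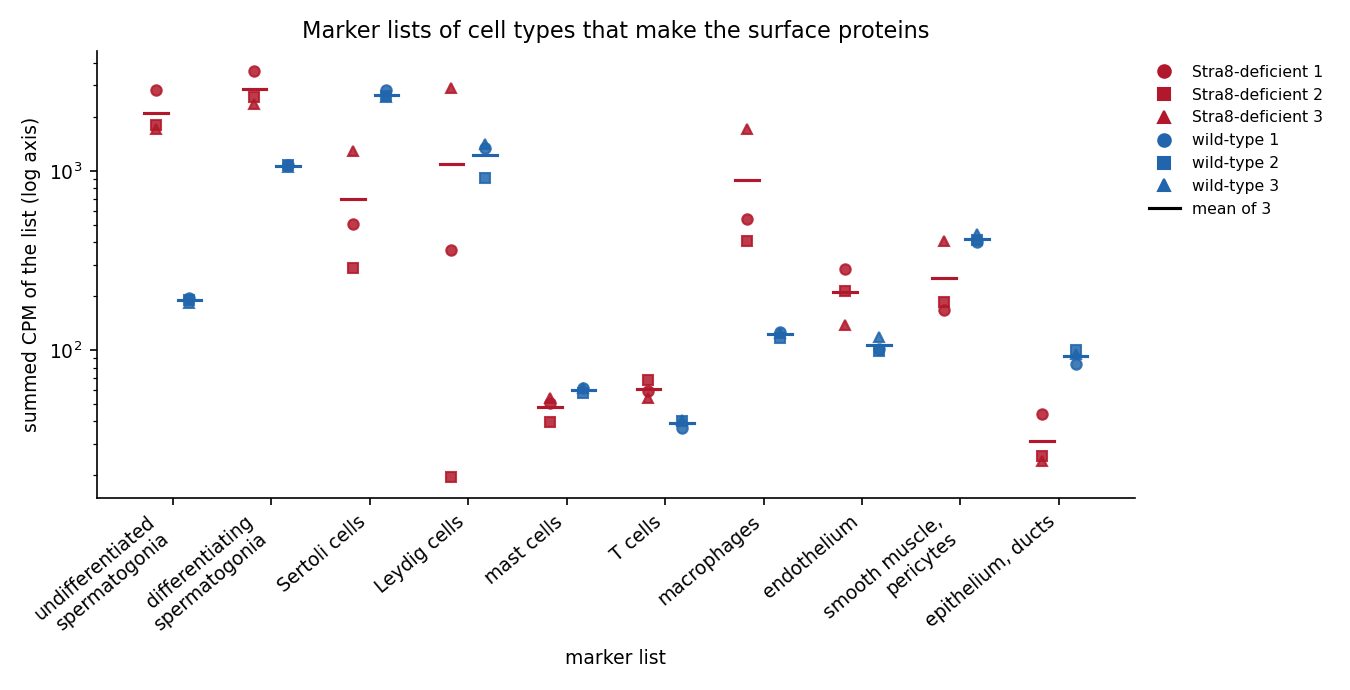
Summed CPM of marker lists in each of the 6 libraries, on a log axis, with Stra8-deficient points left of wild-type points and a bar at the mean of 3 libraries. The Leydig list ranges from 19.5 to 2913 CPM among Stra8-deficient testes, and the Sertoli list lies at 287 to 1289 CPM in Stra8-deficient testes, against 2571 to 2834 CPM in wild-type ones.

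The genes whose pattern over the 6 libraries was most like that of Kit were Slc35f2, Tpst2 and Chd6, with Euclidean distances of 0.19, 0.24 and 0.25 in log2 CPM centred per gene, among 9726 genes. Slc35f2, a solute carrier family member, was at 157, 224 and 144 CPM in the Stra8-deficient and 26.1, 25.3 and 23.8 CPM in the wild-type libraries, high in the second Stra8-deficient library like Kit. For Kitl they were Myl9, a regulatory light chain of smooth muscle myosin, Frmd4b and Ndufaf2, at distances of 0.24, 0.40 and 0.42. Myl9 was at 18.5, 19.7 and 61.6 CPM against 61.5, 58.3 and 79.4 CPM, near the wild-type level in the third library like Kitl. The 6 libraries fall into 2 genotypes, and the likeness is a description with no test.

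The direction of the 8 rising genes held under each of the 5 scalings of the libraries, but the call of Epcam was lost with RLE size factors (0.38; edgeR, adjusted p = 0.0877) and with DESeq2 (0.38; adjusted p = 0.106). Their log2 fold changes ran from 0.50 for Epcam to 6.43 for Cd9 with TMM and from 2.97 for Epcam to 8.91 for Cd9 under Sertoli-list scaling, which moved the median of all tested genes to 2.54. Kitl was at -1.08 with TMM, -1.22 with RLE size factors (called; edgeR, adjusted p = 0.0321), -0.48 with library size alone and 0.89 under Sertoli-list scaling. Its direction therefore depends on what the libraries are scaled to.

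**Figure D5:**
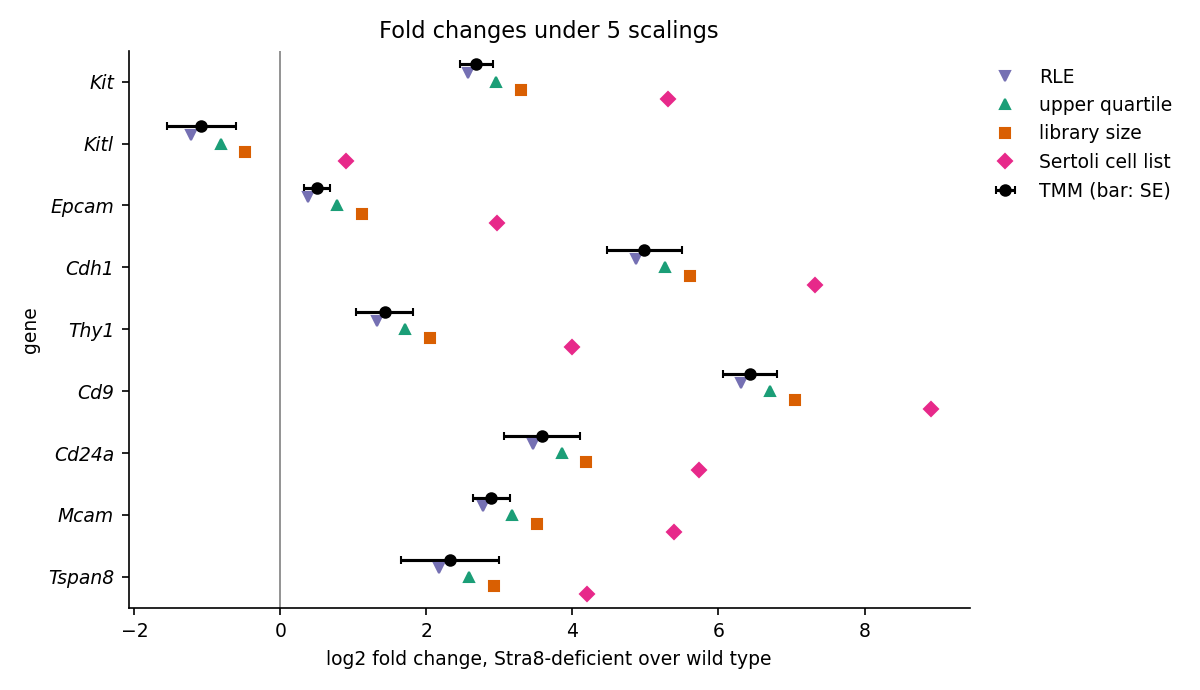
Log2 fold change, Stra8-deficient over wild type, of the 9 genes under 5 scalings of the libraries; the bar on the TMM value is its approximate standard error. For 8 genes every scaling lies above 0, and for Kitl the value lies between -1.22 (RLE) and 0.89 (Sertoli cell list).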

How the data were processed

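Poly(A) RNA of 3 Stra8-deficient and 3 wild-type testes was sequenced; TRIzol extraction, DNase treatment and an Illumina mRNA kit were used, per the labels' protocols. TopHat, HTSeq, edgeR and build mm9 are named for the authors' work in the submitters' processing notes; the sources used here give no version, annotation or strand setting. Deposited counts are whole reads per symbol and library, not normalised. The authors' deposited table gives log2 ratios, and its deposited p-value columns hold nominal and corrected p. HTSeq's counters of reads outside genes took 20.9% to 34.5% of reads and were left out. Columns that matched no label numbered 0.

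The 21786 symbols shared by the 6 files held 99.3% to 99.7% of gene reads. Genes were filtered with filterByExpr, scaled by TMM (factors 0.796 to 1.27) and tested by quasi-likelihood F test in edgeR 4.0.16 (R 4.3.3), with genotype as the only term, Benjamini-Hochberg adjustment over 15018 genes and a threshold of 0.05. The labels describe separate males, so the p-values rest on the spread between 3 and 3 testes. For each gene the same spread was fitted to both genotypes and moderated by that of other genes. The biological coefficient of variation was, however, 38.1% in the Stra8-deficient and 7.36% in the wild-type group, and the effect of this on the p-values was not tested. Standard errors are approximate, derived from each fold change and its F value. The share of calls that were higher was 51.5% with TMM, 63.6% with library size alone and 84.1% under Sertoli-list scaling, and the median over all genes was 0.11, 0.73 and 2.54 on the log2 scale, and -0.01 with RLE and 0.38 with upper-quartile factors. Log2 CPM used a prior count of 2, and marker ratios added 0.5 to marker counts. Limits at a count of 0 (3 counts, 0.201 to 0.550 CPM per library) and Poisson intervals cover counting error only. Exon lengths and chromosomes come from GENCODE M21 (GRCm38) by symbol and may differ from the counted mm9 annotation. The fits were tested on simulated data in which few genes changed and both groups had the same spread. Those settings differ from these data, so the simulation does not test the choice of scaling or the unequal spread.

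The 9 genes and all lists were chosen with earlier results of these data known. Named in addition were the 2 called genes of largest change in a list's main direction and the 1 in the other, with a mean log2 CPM not under 0, any gene of the lists of Kit regulators, sorting proteins and partners, and genes marked as chosen after their values were seen; Cd3e, Cldn7 and the keratins are cell type or partner markers shown for their counts. Cd2, Cd8a, Cd4, Lck, Cd3d, Cldn4, Cldn3 and Rnase10 were named after their values were seen, to show which markers bear a list's calls or sum. Alternatives were other scalings, no filter, DESeq2 1.42.0, limma-voom (limma 3.58.1), the replicate number as a block and each library left out.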

Additional observations from a re-analysis of the deposited data

How the results depend on the processing

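Kit, Cdh1, Thy1, Cd9, Cd24a and Mcam kept their direction and call in all 14 alternatives, and Tspan8 in 13 of 14 (not called in limma-voom, log2 fold change 1.96, adjusted p = 0.0588). Thy1 kept its call narrowly without the second wild-type library (1.33, edgeR, adjusted p = 0.0498). The number of the 9 genes called higher was 7 or 8 throughout. The number called lower was 1, Kitl, with RLE size factors, DESeq2, limma-voom and the replicate block, and 0 to 1 when a library was left out, the 1 arising without the third Stra8-deficient library; the cause was not tested. Epcam kept its call in 7 of 14 alternatives (0.36 to 2.97; adjusted p = 1.11e-04 to 0.134). Kitl reversed to 0.89 and Itgav to 1.00 under Sertoli-list scaling, neither called. Cd81, not called with TMM, changed sign to -0.082 with RLE and -0.082 with DESeq2, -0.022 in limma-voom and -0.026 with the replicate block, and lay at -0.25 to 0.26 when a library was left out; it was called higher with library size alone (0.66) and under Sertoli-list scaling (2.26). Sh2b3, Etv5, Tspan6 and Izumo1 lost their calls under Sertoli-list scaling. Stra8, not called with TMM, was called higher with library size alone (0.83) and under Sertoli-list scaling (2.76). The count of all genes called was 11379 and ran from 10357 to 12303. The Kit to Kitl ratio difference was 3.55 to 4.75 and the Kitl to Sertoli marker difference 1.76 to 2.85 when a library was left out; the second of these was 1.90 with transcription factors and receptors alone, 0.85 with summed markers and 2.80 without Clu, Trf and Ctsl, chosen after seeing the data. Same-numbered libraries did not deviate together (r = 0.06, 0.08 and -0.04), so the numbers were not taken as pairs: the replicate block gave 11218 calls, with Kitl called at -1.36 (adjusted p = 0.00286) and Epcam not (adjusted p = 0.0597), and left the ratio differences at 4.03 and 2.24. Depth limits Cd24a, Cd9, Cdh1 and Thy1 most, with 10 to 39 wild-type reads each.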
